A study of Mus musculus with 9 samples.

Results

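Polyadenylated RNA of whole mouse ovary was compared between a group labelled CTX and an untreated reference group labelled NC, with 3 libraries in each. These are 6 of the 9 libraries of the series. The other 3, labelled HBOT, came from CTX combined with hyperbaric oxygen and were left out of the comparison. CTX is the usual abbreviation of cyclophosphamide, and neither its dose, route and timing nor the strain and age of the mice is given in the sources used here. The labels do not say that the replicates were separate animals, so every p-value below measures the spread between these samples, which may be technical. Expression was deposited as FPKM, which scales fragments by transcript length and by the fragments mapped in a library, for 22544 genes and assembled loci. A gene was kept where it reached 1 FPKM in at least 3 of the 6 libraries, which left 13048 genes for the comparison and put 9496 outside it. Differences were tested with limma on log2(FPKM + 1), with called genes being those whose adjusted p lay under 0.05. Fold changes are given as log2 differences on that scale, CTX minus NC, which understates the change of low genes. Levels are FPKM, with mean ± SD over n = 3 libraries.

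Column sums of FPKM ran from 394046 to 412399, and 12812 to 13089 genes reached 1 FPKM. Mitochondrially encoded transcripts took 7.67% to 9.26% of the sum. Read depth is unknown. CTX replicate 1 stood apart from the other 5 libraries: its highest rank correlation with any of them was 0.961, against at least 0.977 for the others, and it took one end of the first principal component, which held 39.5% of the variance. In that library 294 tested genes lay more than 1 log2 unit below the mean of the other 5, compared with 45 to 108 genes in the others. It also held transcripts of fat cells. Cfd, an adipocyte serine protease, was at 39.8 FPKM there and at 0 to 0.0469 in the others, and Adipoq, the hormone adiponectin, was at 5.24 FPKM and listed at 0 in the other 5 libraries (both genes were chosen after their values were seen). The part of fat tissue in the results was not tested. Without this library 31 genes were called, of which 21 were among the 31 called with it.

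Cyclophosphamide is a prodrug that the liver converts to a DNA-alkylating mustard. It kills dividing cells, and in the ovary it injures the granulosa cells of growing follicles and depletes the reserve of primordial follicles, which hold dormant oocytes. The ovary also contains hormone-producing theca and luteal cells, stroma, vessels and resident immune cells, all of which contribute to RNA of the whole organ. Interferons are cytokines that induce antiviral enzymes, GTPases that attack vacuoles of intracellular microbes, and the MHC molecules that present peptides to T cells.

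The comparison called 31 of 13048 genes (0.238%). Of these, 8 were higher in CTX (0.0613%) and 23 were lower (0.176%). The called genes that were higher included 3 class I MHC genes, the class II invariant chain and an interferon-inducible GTPase. The lower ones included a luteal progesterone-degrading enzyme, inhibitors of the cell cycle, a stem cell receptor and proteins of the matrix and cytoskeleton. In every one of the 31 genes the 3 CTX libraries lay on one side of the 3 NC libraries. Such separation was found in 2734 of all tested genes (21%), with CTX above NC in 1711 (13.1%) and below it in 1023 (7.84%). Over all tested genes the median log2 fold change was 0.04, and 74 genes were higher and 120 lower by at least 1 log2 unit. Fold changes were positive in 7722 of the 13048 genes (59.2%), the share beside which the list counts below stand.

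Small differences were more often positive before rescaling of the libraries. At an unadjusted limma p under 0.05 there were 1843 of the 13048 genes, 1156 higher and 687 lower, so 62.7% were higher. The list counts at an unadjusted p under 0.05 below stand beside these 1843 genes. After scaling to TPM the share was 49.1% (834 of 1699 genes), after median-of-ratios scaling 48.3% (886 of 1833) and after quantile normalization 48.8% (888 of 1819). The number of called genes depended on single libraries. It fell to 15 without CTX replicate 2, 7 without CTX replicate 3, 7 without NC replicate 1, 8 without NC replicate 2 and 13 without NC replicate 3. Commd1b, B3gnt2, S100a4, Klhl30, Qpct and Cdkn2b were called in all 6 fits with 1 library left out. The MHC and GTPase genes were less stable. H2-Q4 and Tgtp1 were called in 2 of these 6 fits, H2-Q7 and Cd74 in 1 and H2-Q1 in 0. Klhl5, Porcn, Scp2, Trpm6, Bhlhe40 and C1galt1 were also called in 0 of them. With the HBOT libraries included in one fit of all 9, limma called 0 genes for the same contrast (smallest adjusted p 0.167), with 1035 at an unadjusted p under 0.05.

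**Figure D1:**
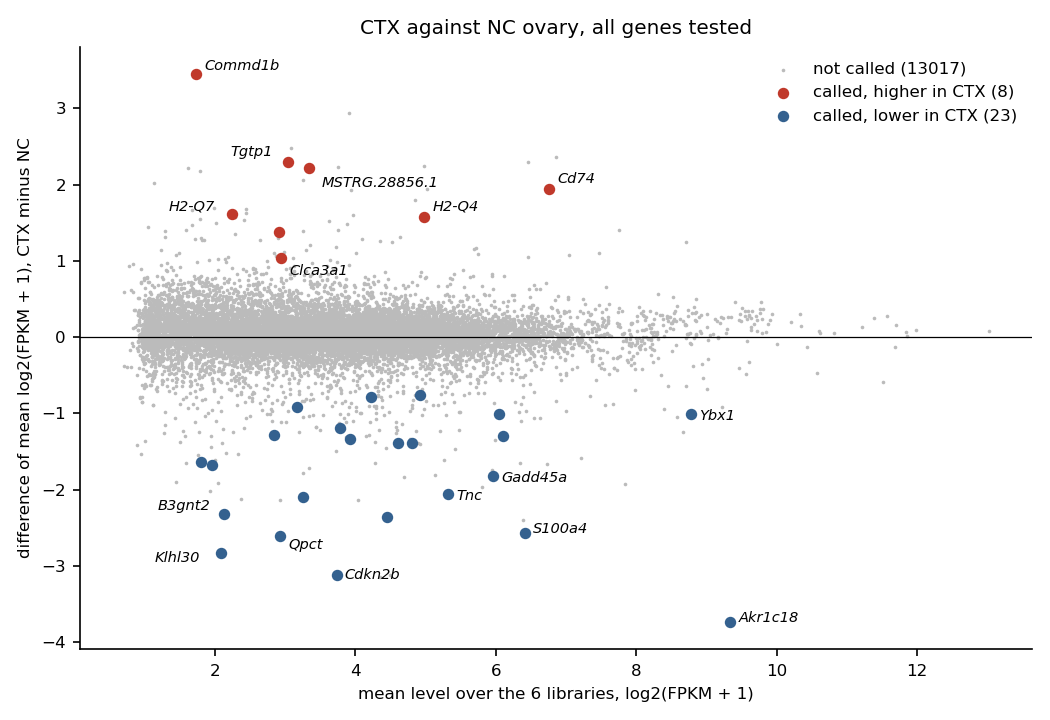
Each point is 1 of the 13048 genes tested, with its mean level over the 6 libraries as log2(FPKM + 1) on the horizontal axis and the difference of the group means of log2(FPKM + 1), CTX minus NC, on the vertical axis. Red points are the 8 genes called higher and blue points the 23 called lower; Commd1b, at the top, is listed at 0 in all NC libraries, so its height is not a fold change, and Akr1c18 lies lowest.

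**Figure D2:**
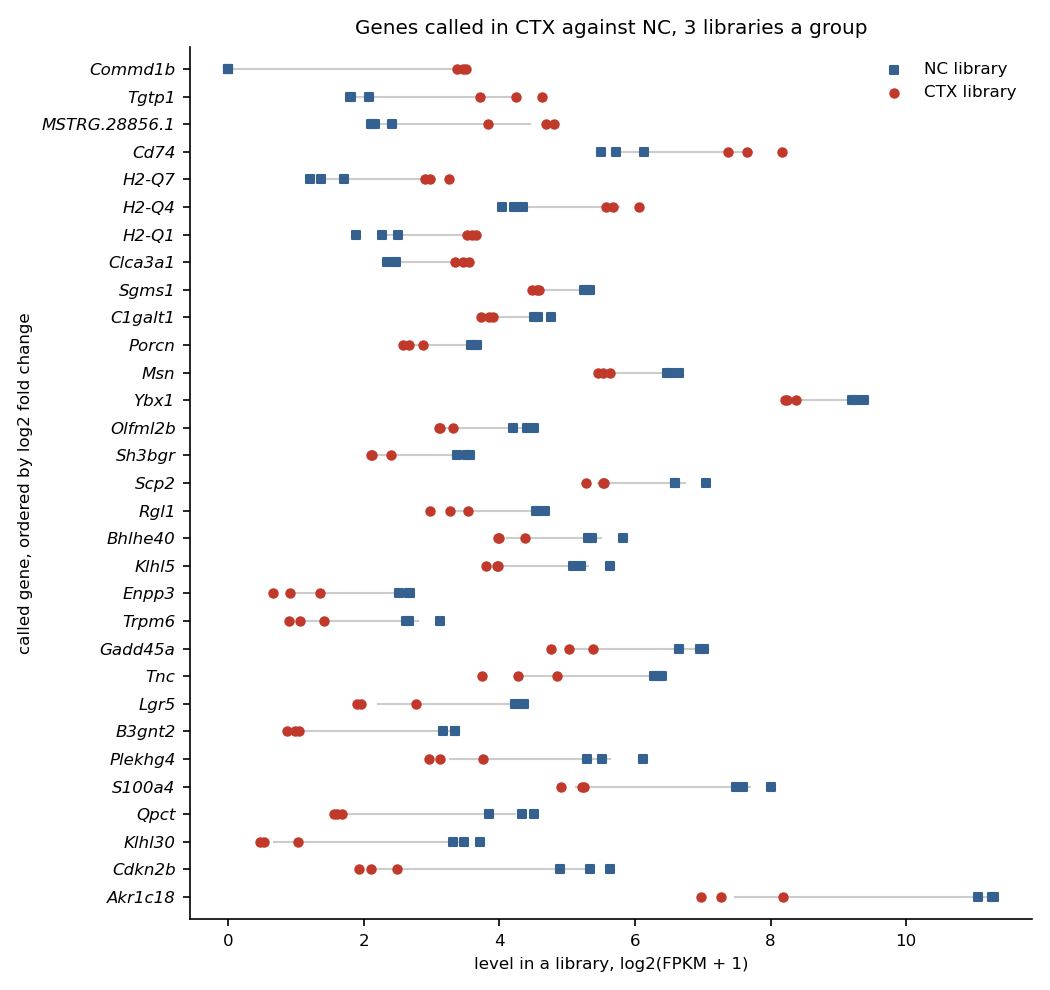
The level of the 31 called genes in each library as log2(FPKM + 1), with red circles for the 3 CTX libraries and blue squares for the 3 NC libraries; grey lines join the group means. In every row the circles and the squares are separate.

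Promoters of 4 of the genes that carried the MHC and GTPase differences and of the cell cycle inhibitor Cdkn2b are shown first, since the motifs in them are referred to below. They were taken from RefSeq on GRCm38.p6 and run from 250 bases before to 50 bases after the annotated start, 5′ to 3′ on the strand of the gene. Capitals mark the motif named for each promoter. In Tgtp1 (chr11:48992197-48992496, minus strand) and its neighbour Tgtp2 (chr11:49064163-49064462, minus strand) it is the interferon-stimulated response element, searched as GAAANNGAA on both strands. Both promoters also hold a gamma-activated site, searched as TTCNNNGAA, and the form GAANNGAAA described below, which are not marked.
Tgtp1: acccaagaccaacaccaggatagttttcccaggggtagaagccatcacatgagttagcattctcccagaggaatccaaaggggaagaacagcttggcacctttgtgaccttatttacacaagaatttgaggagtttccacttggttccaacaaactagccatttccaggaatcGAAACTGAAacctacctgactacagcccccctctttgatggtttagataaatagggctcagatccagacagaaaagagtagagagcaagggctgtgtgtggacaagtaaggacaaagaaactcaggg
Tgtp2: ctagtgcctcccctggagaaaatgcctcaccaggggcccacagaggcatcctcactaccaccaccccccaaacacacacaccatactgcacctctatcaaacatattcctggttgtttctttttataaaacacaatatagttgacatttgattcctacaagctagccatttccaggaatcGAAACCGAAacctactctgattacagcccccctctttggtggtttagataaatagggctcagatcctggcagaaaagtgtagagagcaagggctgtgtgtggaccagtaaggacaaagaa
In the class I genes H2-Q4 (chr17:35379367-35379666, plus strand) and H2-Q7 (chr17:35438905-35439204, plus strand) it is a match to GAANNGAAA, read on the opposite strand. This is the interferon-stimulated response element with its spacing mirrored, a form added to the search after the promoters had been read.
H2-Q4: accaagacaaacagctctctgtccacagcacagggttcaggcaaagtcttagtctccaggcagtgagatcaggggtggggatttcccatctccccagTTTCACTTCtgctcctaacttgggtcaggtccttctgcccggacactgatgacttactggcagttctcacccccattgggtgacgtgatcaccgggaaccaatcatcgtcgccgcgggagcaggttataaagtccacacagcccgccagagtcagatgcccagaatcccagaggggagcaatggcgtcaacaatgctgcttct
H2-Q7: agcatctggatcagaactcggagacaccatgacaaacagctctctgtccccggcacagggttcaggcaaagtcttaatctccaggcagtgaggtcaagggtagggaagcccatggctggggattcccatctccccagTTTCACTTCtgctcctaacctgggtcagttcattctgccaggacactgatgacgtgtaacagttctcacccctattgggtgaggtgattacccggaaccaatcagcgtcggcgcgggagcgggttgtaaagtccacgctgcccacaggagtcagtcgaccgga
In Cdkn2b (chr4:89310983-89311282, minus strand) it is the cyclic AMP response element, searched as TGACGTCA.
Cdkn2b: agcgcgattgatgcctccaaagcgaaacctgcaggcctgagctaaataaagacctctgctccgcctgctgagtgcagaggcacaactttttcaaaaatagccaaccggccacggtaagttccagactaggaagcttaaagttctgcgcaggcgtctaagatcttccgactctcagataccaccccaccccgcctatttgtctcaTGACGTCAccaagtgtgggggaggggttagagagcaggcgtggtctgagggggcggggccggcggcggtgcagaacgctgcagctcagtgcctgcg
The marked matches began 77 bases before the start in Tgtp1, 70 in Tgtp2, 153 in H2-Q4, 113 in H2-Q7 and 46 in Cdkn2b.

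Of the MHC class I genes, 3 of the Q region rose in CTX ovaries. Class I molecules carry peptides made by the proteasome to the cell surface for inspection by CD8 T cells, with beta-2-microglobulin as their light chain. H2-Q4, a class Ib heavy chain, was at 46.8, 65.8 and 49.9 FPKM in CTX replicates 1 to 3 and at 17.5, 15.4 and 19.3 FPKM in NC replicates 1 to 3. All CTX values were above all NC values, and the gene rose by 1.57 log2 units (SE 0.15, limma adjusted p 0.0201). H2-Q7, a related heavy chain, was at 6.44, 8.51 and 6.89 FPKM in CTX and at 1.31, 1.58 and 2.28 in NC. It rose by 1.61 (SE 0.17, adjusted p 0.0286), again without overlap. H2-Q1, another gene of the same Q region, stood at 11.6, 11.1 and 10.5 FPKM in CTX against 4.65, 3.80 and 2.71 in NC and rose by 1.38 (SE 0.16, adjusted p 0.0384). H2-Q6 did not pass, with a fold change of 1.57 (SE 0.24, adjusted p 0.0882). The Q genes are near-identical copies between which reads can be split, so each value alone is uncertain. The sum of H2-Q1, H2-Q4, H2-Q6 and H2-Q7 was 70.3, 96.3 and 74.1 FPKM in CTX and 25.8, 22.2 and 26.1 in NC, which do not overlap either.

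None of the class I genes with the highest levels passed the test. H2-D1, a classical heavy chain, was at 277, 427 and 367 FPKM in CTX and at 147, 138 and 113 in NC, a difference of 1.41 log2 units (SE 0.18, adjusted p 0.0502). B2m, the light chain, was at 489, 755 and 722 FPKM in CTX and at 298, 239 and 275 in NC (1.25, SE 0.18, adjusted p 0.0828). H2-K1, the other classical heavy chain, was at 184, 268 and 354 FPKM in CTX and at 100.1, 128 and 134 in NC (1.11, SE 0.24, adjusted p 0.167). The groups do not overlap for these 3 genes. Psme1, a subunit of the proteasome activator PA28, overlapped (0.32, SE 0.13, adjusted p 0.334). H2-K1 and Psme1 were chosen after their values were seen. Of the 18 genes listed for class I presentation, which include the peptide transporter and the immunoproteasome, all were tested, 17 had a positive fold change, 2 were called, and 14 had all CTX libraries above all NC libraries. The groups overlapped for H2-T23, Tapbp, Psme1 and Tap2, the last of which, a subunit of the peptide transporter, had the only negative fold change (-0.17, adjusted p 0.664). The median over the list was 1.14, beside 0.04 over all genes. H2-Q1 was called but is not on that list.

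The invariant chain of MHC class II rose. Class II molecules present peptides from endocytosed protein to CD4 T cells, and they are carried mainly by macrophages, dendritic cells and B cells. Cd74, the invariant chain that guides class II molecules to endosomes, was at 164, 287 and 201 FPKM in CTX and at 51.9, 69.2 and 44.1 in NC. The lowest CTX library was above the highest NC library, and the gene rose by 1.95 log2 units (SE 0.24, adjusted p 0.0467). H2-Ab1, a class II beta chain, was at 37.9, 71.7 and 54.0 FPKM in CTX and at 13.1, 19.4 and 12.0 in NC, without overlap, but did not pass (1.79, SE 0.26, adjusted p 0.0792). The peptide-loading factors H2-DMb1 (1.06, adjusted p 0.104) and H2-DMb2 (1.55, adjusted p 0.104) did not pass either. Of 10 listed genes 9 were tested, 8 with a positive fold change and 1 called, and 7 had all CTX libraries above all NC libraries. The median was 1.40. For 1 of the 9 tested, no NC library reached 1 FPKM, so it was tested only because of its level in CTX.

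The class II E genes were the exception. H2-Eb1, the only gene of that list with a negative fold change (-0.27, adjusted p 0.856), was at 2.02, 3.39 and 3.54 FPKM in CTX and at 0.851, 7.90 and 5.45 in NC. H2-Ea, the alpha chain that pairs with it, was at 1.82, 3.25 and 3.02 FPKM in CTX and at 0.364, 18.7 and 10.4 in NC (-0.89, SE 0.92, adjusted p 0.679). H2-Ea is not on the list. Both genes were chosen after their values were seen. NC replicate 1 was low and NC replicates 2 and 3 were high for both, so the spread lay within the NC group. Some laboratory strains of mouse carry an H2-Ea gene that is not transcribed, and the strain is not given in the sources used here.

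Among the interferon-inducible GTPases 1 gene rose. Tgtp1, a small GTPase of the IRG family that acts on vacuoles of intracellular pathogens, was at 12.2, 23.8 and 17.9 FPKM in CTX and at 2.51, 2.48 and 3.21 in NC. All CTX libraries were above all NC libraries, and the gene rose by 2.30 log2 units (SE 0.23, adjusted p 0.0218). Its near-identical neighbour Tgtp2 was at 9.34, 45.4 and 15.8 FPKM in CTX and at 3.24, 2.14 and 2.46 in NC, which gave a larger but more variable difference that did not pass (2.48, SE 0.51, adjusted p 0.151). Reads can be split between this pair, and their sum was 21.5, 69.1 and 33.7 FPKM in CTX and 5.75, 4.62 and 5.67 in NC. The related GTPases Igtp (1.93, SE 0.40, adjusted p 0.151) and Iigp1 (2.23, SE 0.49, adjusted p 0.167) did not pass, and in both the groups do not overlap.

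All 15 listed GTPases were tested and had positive fold changes, with a median of 1.24. Tgtp1 alone was called, while 13 had all CTX libraries above all NC libraries. CTX replicate 2 was the highest library: the mean of the list there was 2.31 log2 units above the NC mean, compared with 0.82 and 1.14 in CTX replicates 1 and 3. The NC libraries lay between -0.13 and 0.09.

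Antiviral genes of the interferon response had smaller fold changes. Of 23 listed genes 22 were tested and had positive fold changes, but limma called 0 of them (13 at an unadjusted p under 0.05), and 9 had all CTX libraries above all NC libraries. The median was 0.64. Stat2, a transcription factor of interferon signalling, was at 26.1, 38.0 and 31.6 FPKM in CTX and at 21.8, 19.3 and 18.5 in NC (0.65, SE 0.14, adjusted p 0.172). Rigi, a sensor of viral RNA, had a fold change of 0.53 (SE 0.11, adjusted p 0.144), and Rtp4, an interferon-induced chaperone, one of 0.99 (SE 0.24, adjusted p 0.197). For these 3 genes the groups do not overlap. For the list as a whole they did: NC replicate 1 was 0.38 log2 units above the NC mean, level with CTX replicate 1 at 0.36.

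The motif GAAANNGAA was found in the promoters of all 10 GTPase genes that have an entry in the RefSeq table, out of 15 listed. It was present in 9.76% of all 27018 genes with an entry and in 2 of 17 called lower genes with an entry. Of the class I genes 16 had an entry and 5 held it. The gamma-activated site was found in 6 of the 10 GTPase genes, 1 of the 16 class I genes and 2 of the 17 called lower genes. Its share of all genes was 9.55%. The AP-1 site TGANTCA was found in 3 GTPase genes, 0 class I genes and 1 called lower gene, and in 8.98% of all. The mirrored form GAANNGAAA, which was added to the search after the promoters had been read, was found in 6 class I genes (H2-D1, H2-K1, H2-Q4, H2-Q6, H2-Q7 and Psme1). It was also found in 6 of the 10 GTPase genes, 1 of the 17 called lower genes and 8.68% of all genes. Since this form was added after reading, nothing is read from its counts. The cyclic AMP response element occurred in the promoters of 1 of 17 called lower genes with an entry, Cdkn2b, and in 2.03% of all. Among the 10122 tested genes with an entry its share was 3.47%. The shares there were 8.65% for GAAANNGAA, 8.31% for the gamma-activated site, 6.12% for the AP-1 site and 7.3% for GAANNGAAA. A match describes the sequence and does not show binding of a factor.

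The summed markers of immune cells are given here, since most had higher means in CTX, although limma called 0 of those tested. Their part in the MHC and interferon differences was not tested. In RNA of a whole organ, fewer or more cells of a type and less or more RNA per cell cannot be told apart. The 16 macrophage markers summed to 337, 401 and 263 FPKM in CTX and to 194, 276 and 209 in NC, which overlap. Such a sum is weighted to the most abundant markers. The mean log2(FPKM + 1) of the tested markers, relative to the NC mean, was separate. It was 0.35, 0.66 and 0.28 in CTX and -0.09, 0.13 and -0.04 in NC. Of these 15 were tested, 12 had a positive fold change, limma called 0 (10 at an unadjusted p under 0.05), and 9 had all CTX libraries above all NC libraries; the median was 0.52. C1qb, a subunit of complement C1q made by tissue macrophages, was at 29.0, 35.5 and 30.1 FPKM in CTX and at 19.1, 21.3 and 17.5 in NC (0.68, SE 0.11, adjusted p 0.104). Adgre1, the macrophage surface antigen F4/80, was at 3.75, 4.19 and 3.10 FPKM in CTX and at 1.96, 2.01 and 1.80 in NC (0.67, SE 0.13, adjusted p 0.133). Neither passed. Cd68 (-0.11), Cd14 (-0.03) and Cx3cr1 (-0.02), other macrophage markers that were chosen after their values were seen, had negative fold changes and overlapped. None of the 16 markers was at 0 in all libraries of a group.

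Lymphocyte and neutrophil markers were low in both groups. The sum of 14 T and NK cell markers was 14.6, 20.9 and 33.2 FPKM in CTX and 8.54, 9.10 and 8.2 in NC. Only 5 of them were tested, 2 of which had no NC library at 1 FPKM, so they were tested through their level in CTX. Nkg7, a granule protein of cytotoxic cells, was at 2.08, 1.91 and 3.13 FPKM in CTX and at 0.894, 0.745 and 0.799 in NC. The 12 neutrophil markers summed to 8.71, 11.5 and 46.2 FPKM in CTX and to 2.25, 3.01 and 3.72 in NC. CTX replicate 3 was the highest, as shown by S100a9, a subunit of calprotectin, at 3.63, 3.44 and 18.3 FPKM in CTX and at 0.603, 0.917 and 0.392 in NC. All 3 neutrophil markers tested had no NC library at 1 FPKM, and 2 of the 12 were at 0 in all NC libraries. Since these genes entered the comparison through CTX, where they are high, nothing is read from their tests or medians. The 6 B and plasma cell markers in the table summed to 3.22 to 3.46 FPKM in CTX and to 1.49 to 2.50 in NC.

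Globin transcripts had larger fold changes. Hba-a1, alpha-globin, was at 258, 186 and 370 FPKM in CTX and at 31.8, 44.1 and 89.2 in NC (2.36, SE 0.40, adjusted p 0.112). Hbb-bs, beta-globin, was at 188, 132 and 292 FPKM in CTX and at 21.4, 35.8 and 73.1 in NC (2.30, SE 0.47, adjusted p 0.149). Neither passed the test, although every CTX library was above every NC library. Both have near-identical copies. The 9 erythroid genes summed to 609, 410 and 836 FPKM in CTX and to 79.4, 117 and 227 in NC. All 6 that were tested had positive fold changes, with a median of 2.28; limma called 0, with 5 at an unadjusted p under 0.05. These transcripts mark red blood cells, and the part of blood in the immune and other differences was not tested.

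**Figure D3:**
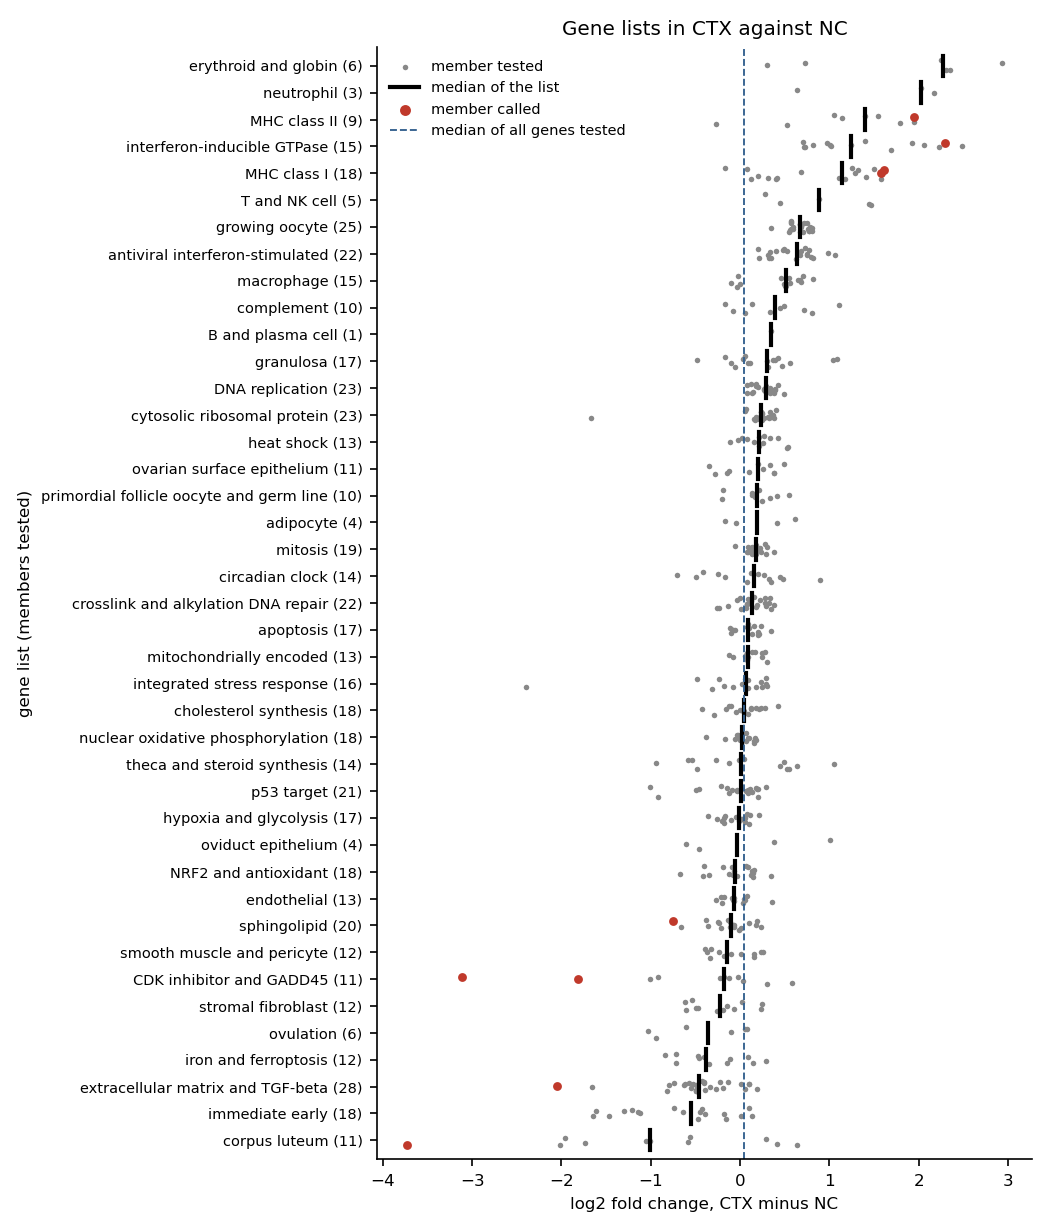
Log2 fold change, CTX minus NC, of the tested members of each gene list (grey points, red where called), with the number tested in brackets; black bars are list medians and the dashed line is the median of all genes tested. The erythroid, MHC class I and II and GTPase lists lie to the right, and the corpus luteum, immediate early and matrix lists to the left.

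A pair of overlapping entries gave the smallest p-values in each direction. Commd1b was listed at 9.38, 10 and 10.3 FPKM in CTX and at 0 in all 3 NC libraries, and it was called higher with an adjusted p of 0.000178. It entered the comparison only through its level in CTX. B3gnt2, which encodes an enzyme that extends polylactosamine chains on glycoproteins, was at 1.06, 0.978 and 0.828 FPKM in CTX and at 9.13, 9.13 and 8 in NC. B3gnt2 fell by 2.32 log2 units (SE 0.11, adjusted p 0.00157), and its groups do not overlap. Commd1b carries the identifier ENSMUSG00000098650, which in the GENCODE M21 annotation of GRCm38 spans both B3gnt2 and its neighbour Commd1, so fragments from B3gnt2 could be assigned to either entry. The sum of Commd1b and B3gnt2 was 10.4, 11 and 11.2 FPKM in CTX and 9.13, 9.13 and 8 in NC, a much smaller difference than that of either entry. Commd1, a regulator of copper transport and NF-kappa-B that was chosen after its values were seen, was at 15.0, 17.6 and 14.7 FPKM in CTX and at 21.5, 19.1 and 22.1 in NC (-0.39, SE 0.10, adjusted p 0.218). How fragments were assigned among the 3 entries is not given in the sources used here and was not tested, so the values of Commd1b and B3gnt2 are uncertain one by one. The other 29 called genes are 7 higher and 22 lower.

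**Figure D4:**
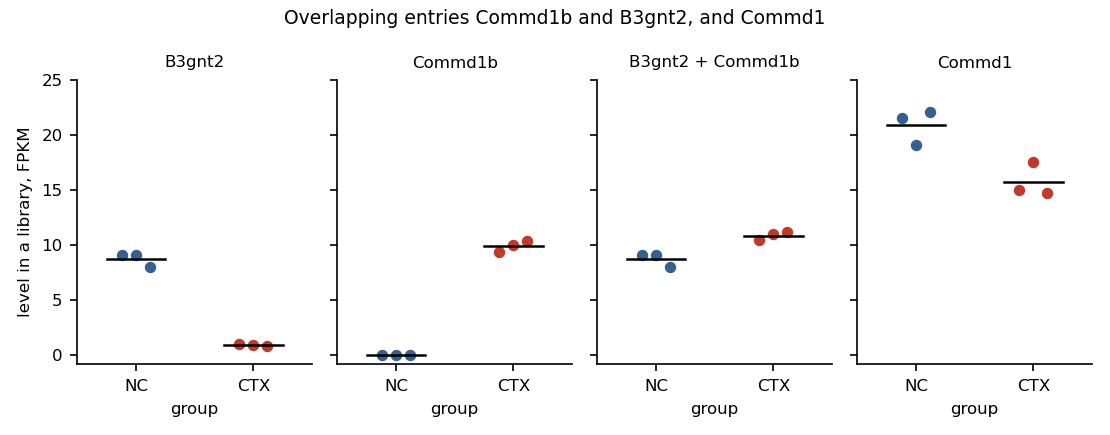
Level in FPKM of B3gnt2, Commd1b, their sum and Commd1 in each library, NC in blue and CTX in red, with a line at each group mean. Commd1b is at 0 in all NC libraries and B3gnt2 is near 1 FPKM in all CTX libraries, while the sum of the pair runs from 8 to 11.2 FPKM over the 6 libraries.

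Of the other genes that were higher, Clca3a1 belongs to a family of calcium-activated chloride channel regulators. It was at 10.7, 10.1 and 9.19 FPKM in CTX and at 4.54, 4.05 and 4.47 in NC, and it rose by 1.04 (SE 0.10, adjusted p 0.0201) without overlap. The assembled locus MSTRG.28856.1, which carries no gene name, was at 27.0, 13.3 and 24.9 FPKM in CTX and at 4.32, 3.49 and 3.32 in NC (2.22, SE 0.26, adjusted p 0.038). Ftdc1, a gene of a ferritin domain family, was at 14.1, 12.3 and 11.1 FPKM in CTX and at 6.83, 6.14 and 7.32 in NC and did not pass (0.80, SE 0.11, adjusted p 0.0761).

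On the log2(FPKM + 1) scale, which understates low genes such as Klhl30, the largest decrease was that of Akr1c18. This gene encodes 20-alpha-hydroxysteroid dehydrogenase, which inactivates progesterone in the corpus luteum, the endocrine body that forms from an ovulated follicle. It was among the most abundant transcripts of the NC ovaries, at 2509, 2464 and 2127 FPKM, and was at 289, 125 and 153 FPKM in CTX. The gene fell by 3.73 log2 units (SE 0.30, adjusted p 0.0118), with mean levels of 189 ± 87.9 FPKM in CTX and 2367 ± 209 in NC. It stayed called in 3 of the 6 fits with 1 library left out, with a largest adjusted p of 0.0826.

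The other luteal genes did not pass the test and went both ways. Onecut2, a transcription factor on the luteal list, was at 1.36, 0.513 and 0.908 FPKM in CTX and at 5.30, 5.35 and 10.2 in NC (-2.01, SE 0.28, adjusted p 0.0661). Ptgfr, the receptor of prostaglandin F2-alpha, the signal for luteal regression, was at 15.2, 33.6 and 67.2 FPKM in CTX and at 120, 103 and 112 in NC (-1.74, SE 0.47, adjusted p 0.218). Abcb1b, a drug efflux transporter, was at 18.8, 25.9 and 41.4 FPKM in CTX and at 127, 59.0 and 174 in NC (-1.96, SE 0.43, adjusted p 0.172). The groups do not overlap for these 3 genes. Of 11 luteal markers 8 had negative fold changes, 1 was called (Akr1c18) and 4 had all CTX libraries below all NC libraries; the median was -1.01, and -0.57 without CTX replicate 1. Ldhb, a lactate dehydrogenase subunit, had all CTX libraries above all NC libraries (0.42, SE 0.14, adjusted p 0.285). Lhcgr, the receptor of luteinizing hormone, and Hsd17b7, a steroid and sterol reductase, also had positive fold changes (0.63 and 0.29) and overlapped; these 3 were chosen after their values were seen. The sum of the 11 was 2308, 3154 and 5599.9 FPKM in CTX and 8138, 7342 and 6093 in NC. CTX replicate 1 was the lowest library and CTX replicate 3 came close to the NC range. The separation of these sums rests on Akr1c18. With that gene taken out, CTX replicate 3 lies within the NC range and the groups overlap.

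Values of other steroid genes overlapped. Cyp11a1, the enzyme that cleaves the side chain of cholesterol and the most abundant gene of the luteal list, was at 1468, 2321 and 4030 FPKM in CTX and at 4275, 3725 and 2923 in NC, which overlap (-0.59, SE 0.37, adjusted p 0.508). Star, which brings cholesterol into mitochondria for steroid synthesis, was at 76.8, 338 and 542 FPKM in CTX and at 478, 386 and 544 in NC (-0.94, SE 0.66, adjusted p 0.556), and CTX replicate 1 was the low library. Scp2, a peroxisomal sterol and lipid carrier, was called: it was at 45.6, 37.9 and 44.9 FPKM in CTX and at 95.0, 95.3 and 132 in NC and fell by 1.30 (SE 0.15, adjusted p 0.038).

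A pair of genes that restrain the cell cycle fell. Cdkn2b encodes p15, which binds CDK4 and CDK6 and holds cells in G1 downstream of TGF-beta. It was at 4.59, 3.32 and 2.80 FPKM in CTX and at 48.5, 28.8 and 39.4 in NC, and it fell by 3.11 log2 units (SE 0.22, adjusted p 0.00616). Gadd45a, a stress-induced gene and p53 target that restrains the cell cycle and takes part in DNA repair, was at 26, 31.7 and 40.7 FPKM in CTX and at 128, 99.2 and 123 in NC. It fell by 1.82 (SE 0.18, adjusted p 0.0201). In both genes all CTX libraries were below all NC libraries. Cdkn1a, the p53 target p21, was at 8.48, 10.7 and 7.12 FPKM in CTX and at 15.1, 19.5 and 21.4 in NC and did not pass (-1.01, SE 0.18, adjusted p 0.114). The opposite direction was seen in Gadd45g, a relative of Gadd45a, with a fold change of 0.58 (SE 0.16, adjusted p 0.218). Of 11 tested genes of this list 8 had negative fold changes and 2 were called, with a median of -0.18.

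Genes of calcium binding, the cytoskeleton and the matrix formed another part of the decreases. S100a4, a calcium-binding protein of motile and mesenchymal cells, was at 36.0, 29.1 and 37.1 FPKM in CTX and at 193, 180 and 256 in NC, and it fell by 2.57 (SE 0.16, adjusted p 0.00515). Msn, the membrane and actin linker moesin, was at 45.2, 48.6 and 42.8 FPKM in CTX and at 90.8, 99.0 and 88.0 in NC, and it fell by 1.01 (SE 0.08, adjusted p 0.0143). The groups were separate for both. Tnc, tenascin C, a matrix glycoprotein of tissue remodelling, was at 27.8, 18.3 and 12.4 FPKM in CTX and at 76.7, 83.4 and 80.6 in NC, and it fell by 2.05 (SE 0.25, adjusted p 0.0467). Olfml2b, an extracellular olfactomedin-domain protein, was at 8.96, 7.72 and 7.63 FPKM in CTX and at 17.3, 20.1 and 21.9 in NC, and it fell by 1.19 (SE 0.11, adjusted p 0.0201).

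The matrix and TGF-beta list as a whole lay below 0. Of 28 genes tested 23 had negative fold changes, 1 was called (Tnc) and 11 had all CTX libraries below all NC libraries; the median was -0.46, beside 0.04 over all genes. Tgfb1, the growth factor that drives matrix deposition, was at 13.1, 15.7 and 15.3 FPKM in CTX and at 23.2, 28.0 and 29.1 in NC (-0.82, SE 0.12, adjusted p 0.0757). Loxl2, which crosslinks collagen, had a fold change of -0.74 (SE 0.13, adjusted p 0.119), and Fn1, fibronectin, one of -0.50 (SE 0.10, adjusted p 0.151). None of these 3 passed. Among 12 stromal fibroblast markers 9 had negative fold changes, with a median of -0.23; limma called 0, with 3 at an unadjusted p under 0.05. Lum, the collagen-binding proteoglycan lumican, was at 46.8, 38.1 and 42.8 FPKM in CTX and at 60.4, 59.7 and 76.3 in NC (-0.61, SE 0.13, adjusted p 0.151).

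A pair of Wnt pathway genes was lower. Lgr5, a receptor of R-spondins that raises Wnt signalling and marks progenitors of the ovarian surface, was at 5.82, 2.9 and 2.72 FPKM in CTX and at 17.7, 19.1 and 19.5 in NC. It fell by 2.09 (SE 0.23, adjusted p 0.0338). Porcn, the acyltransferase that all Wnt ligands need for secretion, was at 4.98, 5.35 and 6.32 FPKM in CTX and at 11.7, 11.3 and 11 in NC, and it fell by 0.92 (SE 0.10, adjusted p 0.0375). No overlap was seen in either. The 11 markers of the surface epithelium had a median of 0.20, with 7 positive and 4 negative fold changes. Limma called 0 of them, 0 were at an unadjusted p under 0.05, and the groups overlapped in each.

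Regulators of transcription and RNA were among the lower genes. Ybx1, an abundant cold-shock protein that binds mRNA, was at 331, 295 and 301 FPKM in CTX and at 588, 616 and 666 in NC, and it fell by 1.01 (SE 0.10, adjusted p 0.0201). Bhlhe40, a transcriptional repressor tied to the circadian clock and to hypoxia, was at 14.8, 19.8 and 14.9 FPKM in CTX and at 40.4, 55.5 and 38.7 in NC, and it fell by 1.38 (SE 0.17, adjusted p 0.0467). Per2, a clock repressor, had the opposite sign, at 7.20, 6.23 and 7.56 FPKM in CTX and 2.48, 4.13 and 3.39 in NC, and did not pass (0.90, SE 0.16, adjusted p 0.118). The 14 clock genes had a median of 0.16, 0 called and 2 at an unadjusted p under 0.05.

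Enzymes of lipids and sugars were called as well. Sgms1, which makes sphingomyelin from ceramide in the Golgi, was at 22.5, 21.3 and 23 FPKM in CTX and at 39.4, 38.5 and 36.8 in NC. It fell by 0.75 (SE 0.07, adjusted p 0.0201), the smallest of the called decreases. Sgms2, its counterpart at the plasma membrane, was at 7.82, 12.2 and 7.70 FPKM in CTX and at 15.4, 16 and 13.2 in NC and did not pass (-0.66, SE 0.18, adjusted p 0.218). Of 20 tested sphingolipid genes 15 had negative fold changes, and the median was -0.10. C1galt1, which extends O-linked glycans, was at 13.3, 14.0 and 12.3 FPKM in CTX and at 22.8, 21.7 and 26.2 in NC, and it fell by 0.79 (SE 0.10, adjusted p 0.0467). Qpct, which forms pyroglutamate at the start of peptides, was at 1.96, 2.03 and 2.21 FPKM in CTX and at 13.3, 21.8 and 19.1 in NC, and it fell by 2.61 (SE 0.18, adjusted p 0.00558).

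The remaining called genes have other roles. Klhl30, a kelch-family protein, was at 1.03, 0.432 and 0.384 FPKM in CTX and at 12.2, 10.1 and 8.98 in NC, and it fell by 2.83 (SE 0.19, adjusted p 0.00558). Its relative Klhl5 fell by 1.39 (SE 0.15, adjusted p 0.031), from 39.1 ± 8.2 FPKM in NC to 14.1 ± 1 in CTX. The GTPase regulators Plekhg4, a guanine nucleotide exchange factor, and Rgl1, a Ral exchange factor, fell by 2.36 (SE 0.27, adjusted p 0.038) and by 1.34 (SE 0.15, adjusted p 0.0325). Plekhg4 went from 50.2 ± 15.8 to 8.97 ± 3.05 FPKM and Rgl1 from 23.2 ± 1.15 to 8.69 ± 1.85. Enpp3, an ectonucleotidase, fell by 1.64 (SE 0.19, adjusted p 0.038), and Trpm6, a magnesium channel, by 1.68 (SE 0.20, adjusted p 0.0385). Both were near 1 FPKM in CTX, at 1.01 ± 0.501 and 1.2 ± 0.419, compared with 5.14 ± 0.374 and 6.07 ± 1.44 in NC. Sh3bgr fell by 1.28 (SE 0.12, adjusted p 0.0201), from 10.2 ± 0.772 to 3.64 ± 0.544 FPKM.

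Oocyte transcripts were not lower in the CTX libraries. All 25 listed markers of the growing oocyte were tested and had positive fold changes from 0.35 to 0.81, with a median of 0.68, and 20 had all CTX libraries above all NC libraries. Limma called 0 of them, and 24 were at an unadjusted p under 0.05. Gdf9, a growth factor that oocytes send to granulosa cells, was at 76.0, 76.1 and 51.2 FPKM in CTX and at 43.6, 28.3 and 43.2 in NC (0.81, SE 0.22, adjusted p 0.218). Zp3, the sperm-binding protein of the zona pellucida, was at 59.0, 64.9 and 38.5 FPKM in CTX and at 34.1, 23.2 and 36.8 in NC (0.76, SE 0.24, adjusted p 0.269). The lowest value of Dppa3, a maternal factor that protects methylation in the zygote, was 17.6 FPKM in CTX and its highest 12.8 FPKM in NC (0.60, SE 0.09, adjusted p 0.0882), the smallest adjusted p of the list.

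The other oocyte genes named by p-value had the same sign. Kpna7, an importin of oocytes, had a fold change of 0.68 (SE 0.13, adjusted p 0.133), H1f8, the oocyte linker histone, one of 0.78 (SE 0.19, adjusted p 0.201) and Omt2b one of 0.77 (SE 0.17, adjusted p 0.167). The sum of the 25 markers was 714, 750 and 505 FPKM in CTX and 453, 325 and 433 in NC, with CTX replicate 3 nearest to the NC libraries. Markers of primordial oocytes and the germ line had smaller fold changes on the log2(FPKM + 1) scale, which understates low genes. Several were low, such as Ddx4, Dazl and Figla, with CTX means of 1.79, 1.83 and 1.35 FPKM. Their sizes can therefore not be set directly against those of the growing oocyte. Of 14 primordial and germ line markers listed, 10 were tested, 8 with positive and 2 with negative fold changes. None had separate groups, and the median was 0.19. Limma called 0 of these 10, with 1 at an unadjusted p under 0.05. Ddx4, an RNA helicase of germ cells, was at 1.74, 2.22 and 1.42 FPKM in CTX and at 1.87, 1.69 and 1.09 in NC (0.13, SE 0.18, adjusted p 0.763). Foxo3, which keeps primordial follicles dormant, was at 13.2, 12.2 and 10.8 FPKM in CTX and at 11.7, 11.7 and 13.5 in NC (-0.03, SE 0.10, adjusted p 0.922). Uchl1, the most abundant marker of this list, had a fold change of 0.55 (SE 0.19, adjusted p 0.291), with overlap. A mean per ovary of all oocytes cannot give the number of follicles of any stage.

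Granulosa genes varied widely among the CTX libraries. Amh, the hormone of small growing follicles, was at 414, 171 and 97.7 FPKM in CTX and at 76.5, 73.2 and 128 in NC (1.08, SE 0.51, adjusted p 0.395). Fshr, the receptor of follicle-stimulating hormone, was at 23.6, 9.68 and 17.8 FPKM in CTX and at 10.6, 10.7 and 10.5 in NC (0.56, SE 0.28, adjusted p 0.431). Cyp19a1, the aromatase that makes oestradiol, was at 27.2, 2.37 and 18.9 FPKM in CTX and at 3.35, 7.69 and 4.74 in NC (1.04, SE 0.77, adjusted p 0.568). In all 3 the groups overlap, and CTX replicate 1 was the highest library. Foxl2, a transcription factor of granulosa identity, was at 110, 85.8 and 84.1 FPKM in CTX and at 72.4, 75.9 and 65.7 in NC, separate but not called (0.37, SE 0.12, adjusted p 0.279). Inha, the inhibin alpha chain and the most abundant granulosa marker, overlapped (0.30, SE 0.27, adjusted p 0.632). Of 17 granulosa markers 13 had positive fold changes, with a median of 0.30, and of 0.13 without CTX replicate 1. Limma called 0, with 1 at an unadjusted p under 0.05.

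Theca and steroid genes had no common direction. Of 14 tested 7 had positive and 7 negative fold changes; limma called 0, with 2 at an unadjusted p under 0.05. The median of 0.02 was between -0.03 and -0.01 after the 3 rescalings. Cyp17a1, which makes androgens, was at 511, 12.3 and 300.1 FPKM in CTX and at 119, 62.8 and 29.0 in NC (1.06, SE 1.34, adjusted p 0.745), and CTX held both the highest and the lowest library. Hhip (0.55, SE 0.13, adjusted p 0.189) and Gli1 (0.52, SE 0.17, adjusted p 0.274), which respond to the hedgehog signals that granulosa cells send to theca, were separate between groups but not called. Cholesterol synthesis genes split by library: relative to the NC mean their mean was -1.10 in CTX replicate 1, 0.40 in CTX replicate 2 and 0.81 in CTX replicate 3. The median over the 18 tested was 0.04 with all libraries and 0.58 without CTX replicate 1. With all libraries limma called 0 of these, with 0 at an unadjusted p under 0.05.

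**Figure D5:**
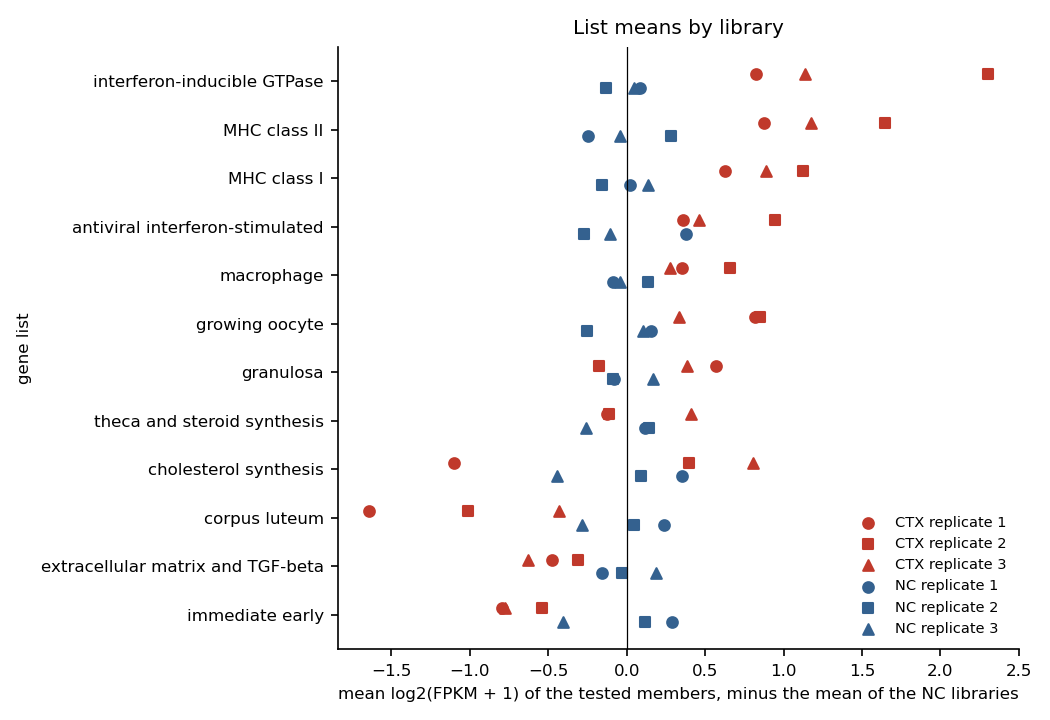
For 12 gene lists, the mean log2(FPKM + 1) of the tested members in each library minus the mean of the 3 NC libraries; CTX in red, NC in blue, one marker shape for each replicate number. CTX and NC are separate in the GTPase, MHC class I and II, macrophage, growing oocyte, corpus luteum, matrix and immediate early lists, and CTX replicate 1 lies far from the other CTX libraries for cholesterol synthesis.

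The listed genes that answer DNA damage had no common direction. Of 21 tested genes of the p53 target list, which also holds Trp53, the p53 gene itself, 11 had positive and 10 negative fold changes. Their median was 0.01 and their mean -0.09, with medians from -0.04 to -0.02 after the 3 rescalings. Gadd45a, a p53 target described above and called lower (-1.82, limma adjusted p 0.0201), is not on this list. Cdkn1a, also described above, had the most negative fold change of the list (-1.01, adjusted p 0.114), with separate groups. Bax, which opens mitochondria during apoptosis, was at 69.6, 66.4 and 68.2 FPKM in CTX and at 59.9, 58.7 and 59.1 in NC, a separate but small difference that did not pass (0.20, SE 0.07, adjusted p 0.281). Trp53inp1, a p53 target of cell death and autophagy, was at 15.2, 17.4 and 12.4 FPKM in CTX and at 21.3, 21.3 and 21.2 in NC (-0.49, SE 0.12, adjusted p 0.207). Btg2, an antiproliferative p53 target, overlapped (-0.92, SE 0.35, adjusted p 0.322). Repair genes for crosslinks and alkylation had a median of 0.14, with 17 of 22 positive, but of 0.00 without CTX replicate 1. Brca2, a repair protein of homologous recombination, had a fold change of 0.32 (SE 0.13, adjusted p 0.33). Of 17 apoptosis genes 12 were positive, with a median of 0.09, where 59.2% of all tested genes were positive. Limma called 0 genes in these 3 lists, with 4 p53 targets, 3 repair genes and 2 apoptosis genes at an unadjusted p under 0.05. Of all 13048 tested genes 1843 were at that level.

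Proliferation genes had small positive fold changes. All 23 replication genes and 18 of 19 mitosis genes were positive, with medians of 0.29 and 0.18. Limma called 0 in either, with 2 replication and 0 mitosis genes at an unadjusted p under 0.05. Without CTX replicate 1 the medians were 0.07 and 0.01. Tyms, the enzyme that makes thymidylate, was at 11.1, 9.81 and 9.15 FPKM in CTX and at 6.10, 7.02 and 9.49 in NC (0.38, SE 0.16, adjusted p 0.349). Mki67, the proliferation antigen Ki-67, was at 14.9, 11.5 and 9.91 FPKM in CTX and at 9.47, 8.80 and 14.9 in NC (0.14, SE 0.22, adjusted p 0.804). Both overlap, and CTX replicate 1 and NC replicate 3 held the highest values of mitosis genes, 0.48 log2 units above the NC mean each.

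Immediate early genes, which are induced within minutes of a stimulus, mostly had negative fold changes. Of 18 tested 15 were negative, limma called 0 (9 at an unadjusted p under 0.05) and 8 had all CTX libraries below all NC libraries; the median was -0.55. These counts include Egr2, which reached 1 FPKM in no CTX library and was tested only through its level in NC. Jun, a subunit of the AP-1 transcription factor, was at 19.2, 14.8 and 14.4 FPKM in CTX and at 38.9, 30.6 and 40.5 in NC (-1.14, SE 0.15, adjusted p 0.0594). Junb was at 9.63, 11.3 and 10.1 FPKM in CTX and at 35.4, 32.0 and 16.8 in NC (-1.30, SE 0.26, adjusted p 0.149). Zfp36, which destabilizes cytokine mRNA, had a fold change of -1.21 (SE 0.26, adjusted p 0.159), and Ier3 one of -0.74 (SE 0.14, adjusted p 0.133). For all 4 the groups were separate, and NC replicate 3 was the NC library nearest to CTX for Junb and Zfp36.

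The lists of stress pathways gave 0 called genes. Nupr1, a chromatin protein induced by stress, was at 34.3, 59.9 and 21.4 FPKM in CTX and at 176, 203 and 196 in NC, a large separate difference that did not pass (-2.40, SE 0.33, adjusted p 0.0683). The 16 tested genes of the integrated stress response, which contain it, had a median of 0.07, with 10 positive and 6 negative. Atf5, a transcription factor of that pathway, was also lower (-0.48, SE 0.11, adjusted p 0.185). The NRF2 and antioxidant list had a median of -0.05. Hmox1, haem oxygenase 1, was at 24.3, 31.9 and 29.2 FPKM in CTX and at 34.2, 35.0 and 40.2 in NC (-0.35, SE 0.12, adjusted p 0.291). Vegfa, the vessel growth factor of the hypoxia response, was at 63.6, 86.4 and 102 FPKM in CTX and at 105, 101 and 57.8 in NC (-0.04, SE 0.27, adjusted p 0.961), and the hypoxia and glycolysis list had a median of -0.01. Iron and ferroptosis genes had 9 of 12 negative fold changes and a median of -0.38, which was -0.18 without CTX replicate 1. All CTX libraries lay below all NC libraries for 5 of these genes and above them for 1. Aifm2, which protects membranes from lipid peroxidation, was at 16.3, 20 and 17.1 FPKM in CTX and at 25.7, 23.7 and 25.4 in NC (-0.47, SE 0.10, adjusted p 0.151). Limma called 0 genes in these 4 lists. At an unadjusted p under 0.05 there were 2 in the integrated stress response, 2 in the NRF2 list, 1 in hypoxia and glycolysis and 6 in iron and ferroptosis.

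In the lists of housekeeping and vascular genes 0 were called. Cytosolic ribosomal proteins had a median of 0.24, with 22 of 23 positive and 8 separate. Heat shock genes had a median of 0.21, led by Hsph1, a chaperone of the HSP110 family (0.54, SE 0.16, adjusted p 0.255). The 13 mitochondrially encoded genes had a median of 0.09 and nuclear genes of oxidative phosphorylation one of 0.02, and Cox5a, a subunit of cytochrome oxidase, was lower without passing (-0.38, SE 0.11, adjusted p 0.246). Endothelial markers had a median of -0.07, with Egfl7, a secreted endothelial protein, at 0.35 (SE 0.11, adjusted p 0.268). Smooth muscle and pericyte markers had one of -0.14, with Pdgfrb, the pericyte receptor of PDGF-B, at -0.37 (SE 0.09, adjusted p 0.201). By limma, at an unadjusted p under 0.05 there were 7 ribosomal, 3 heat shock, 1 mitochondrially encoded, 1 nuclear oxidative, 1 endothelial and 3 smooth muscle genes. The complement list had a median of 0.39 over 10 genes (0.09 without CTX replicate 2), and the ovulation list one of -0.36 over 6. Of the oviduct and adipocyte markers only 4 each were tested, with medians of -0.04 and 0.19. These 4 lists had 0 called genes, and 1, 2, 1 and 0 at an unadjusted p under 0.05.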

How the data were processed

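The authors deposited 1 table of FPKM with a column for each of 9 mouse ovary libraries and 22544 entries, 21797 with Ensembl identifiers and 747 assembled loci with MSTRG names. Per the labels' protocols, RNA was extracted with TRIzol, selected with oligo(dT) and built into libraries with the VAHTS mRNA-seq v3 kit. Per the submitters' processing notes, fastp 0.23.4 and GRCm39 (mm39) were used. Not given in the sources used here are the aligner, the program that computed FPKM, its use of strand and the release of the annotation. Read counts could not be recovered, so depth is unknown and count models were not used. Columns were matched by the names in the sample descriptions.

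The 3 CTX and 3 NC columns were put on the log2(FPKM + 1) scale, left unscaled otherwise, filtered at 1 FPKM in at least 3 libraries and fitted with limma 3.58.1 in R 4.3.3 (lmFit, eBayes with trend). Benjamini-Hochberg adjustment ran over all 13048 tested entries, 229 of them MSTRG loci. The 41 gene lists hold 636 genes, of which 567 were tested, 64 were below the filter and 5 were not in the table; they are described by counts and medians, with no set test. The rule for names covers every called gene, the next genes by p-value up to 10 established ones a direction, up to 4 genes of smallest p in a list, the most abundant gene of a cell type list, close copies of these genes and a panel of 15 follicle and stress genes. The comparison, lists and rules were chosen with earlier results of these data known. Values of 2 genes under this rule are not reported here. Promoters were RefSeq sequences on GRCm38.p6 matched by symbol. The fit was also run on simulated data with normal noise drawn from its own variances. It recovered 79% of 100 changes of 1 log2 unit and 97% of 100 changes of 2, with 8 false calls among 12848 unchanged genes. Such data hold no outlying library, so they cannot show how the fit handles a library such as CTX replicate 1. Figures were drawn with matplotlib 3.10.9 in Python 3.11.15.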

Additional observations from a re-analysis of the deposited data

How the results depend on the processing

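The count of 31 called genes was 8 without a filter, 0 in one fit of all 9 libraries, 8 in a fit of 8 libraries without HBOT replicate 2 (added after the data were seen), 49 with library weights, and 7 to 31 with 1 of the 6 libraries left out. It was 28 to 36 in the other settings without a block: a pseudocount of 0.1, a filter at 5 FPKM, quantile, median-of-ratios or TPM scaling, eBayes without trend or robust, and a smallest log2 fold change of 1. Whether replicate numbers pair the samples is not known. Deviations of same-numbered libraries correlated at -0.21, 0.19 and -0.29, and those of other-numbered libraries at -0.302 to 0.420. With 3 libraries a group, whose deviations depend on one another, these values cannot decide it. With replicate number as a block 11 genes were called. No called gene changed sign in any of the 18 settings, 6 were called in all 6 fits with 1 library left out and 7 in none. Of 112 named genes 12 changed sign. With library weights the log2 fold change of Cyp17a1 was -0.16, the log2 fold change of Cd68 0.0039, the log2 fold change of Cd14 0.0436, the log2 fold change of Cx3cr1 0.0787 and the log2 fold change of H2-Eb1 0.0848. With 1 library left out the log2 fold change of Ddx4 ran from -0.0033 (without NC replicate 3) to 0.23, the log2 fold change of Foxo3 from -0.089 to 0.0398 (without CTX replicate 3; 0.0351 without NC replicate 3), the log2 fold change of Mki67 from -0.0098 (without CTX replicate 1) to 0.35, the log2 fold change of Vegfa from -0.31 to 0.15 (without CTX replicate 1; 0.11 without NC replicate 1 and 0.08 without NC replicate 2), the log2 fold change of Tap2 from -0.30 to 0.0149 (without NC replicate 3), the log2 fold change of Cd68 from -0.36 to 0.14 (without CTX replicate 3), the log2 fold change of Cd14 from -0.20 to 0.105 (without NC replicate 2), the log2 fold change of Cx3cr1 from -0.25 to 0.12 (without CTX replicate 1), the log2 fold change of Lhcgr from -0.0812 (without NC replicate 3) to 1.05, the log2 fold change of Hsd17b7 from -0.93 (without CTX replicate 3) to 1.64 and the log2 fold change of H2-Eb1 from -0.95 to 0.18 (without NC replicate 2). The causes were not tested. FPKM gives no read depth, so how far depth limits the low genes is unknown.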

Other observations

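Rpl26, a protein of the large ribosomal subunit, split the NC libraries: it was listed at 47.9, 357 and 386 FPKM in NC and at 65.9, 55.8 and 55.1 FPKM in CTX (log2 fold change -1.66, SE 0.76, limma adjusted p 0.382). NC replicate 1 lay with the CTX libraries. The gene was chosen after its values were seen, and it is the only one of 23 ribosomal protein genes tested with a negative fold change.

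The HBOT libraries, which took no part in the comparison, did not take one side for the called genes. Of the 31 genes, 7 were nearer to the NC mean than to the CTX mean in HBOT replicate 1, 13 in HBOT replicate 2 and 25 in HBOT replicate 3. Akr1c18 was at 194, 418 and 2848 FPKM in HBOT replicates 1 to 3, S100a4 at 20.3, 43.1 and 385 FPKM, and Cdkn2b at 8.50, 11.9 and 29.7 FPKM. B3gnt2 was at 1.96, 1.69 and 8.54 FPKM in the same libraries and Commd1b at 9.63, 10.8 and 0, so the pair changed over together. The locus MSTRG.28856.1 was at 3.82, 2.08 and 3.61 FPKM, near its NC level in all 3. These genes were chosen for their CTX and NC values, so the HBOT values are a description.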
